A study of Saccharomyces cerevisiae with 8 samples.

Results

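Ribosome footprints were examined in 5 Xrn1-sensitive unstable transcripts (XUTs) of budding yeast that run antisense to nuclear genes for mitochondrial proteins. The transcripts were XUT1341 (antisense to COX5B), XUT0333 (COX4), XUT0398 (LSC2), XUT1253 (CLD1) and XUT0195 (UPS3). They hold 64 of the 13941 listed open reading frames (ORFs) and are 5 of the 1637 XUTs in the table. They were chosen by name, for the gene opposite them and because ratios of read shares or differences in phase score in these same data stood out. Every comparison between conditions below is therefore a description, with no test. XUT1341 has 19 listed ORFs, XUT0333 has 7, XUT0398 has 3, XUT1253 has 25 and XUT0195 has 10.

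All cells were of strain BY4741, a MATa laboratory strain carrying his3Δ1, leu2Δ0, met15Δ0 and ura3Δ0, grown to mid-log phase in YPD at 30 °C. The WT group carried no further change, and the upf1 group also carried a kanMX4 replacement of UPF1. Cells of each genotype were harvested untreated or after 15 min with cycloheximide (CHX), which blocks translation elongation. The 4 conditions (WT and upf1, each untreated or CHX-treated) had 2 biological replicates apiece, but the table gives 1 value per condition. Plots label the treated ones with + CHX. No spread between replicates can therefore be given, and intervals are 95% exact intervals that cover counting error only. UPF1 itself is not among the listed ORFs, so the mutation was not checked here.

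XUTs are long noncoding RNAs that accumulate when the cytoplasmic exonuclease Xrn1 is missing. Upf1 is the helicase at the core of nonsense-mediated decay, a pathway that follows a translation stop far from the RNA's 3′ end, so ribosomes on such RNAs bear on how they are degraded. Cytochrome c oxidase, the terminal enzyme of the respiratory chain, contains Cox4 and either Cox5a or its hypoxic counterpart Cox5b. Lsc2 is the beta subunit of succinyl-CoA ligase in the tricarboxylic acid cycle. Cld1 removes an acyl chain from cardiolipin, the lipid characteristic of the inner mitochondrial membrane, and Ups3 belongs to the family of Ups1 and Ups2, which move phospholipids between the mitochondrial membranes. The footprints described are on the antisense RNAs, and those on the sense genes were not analysed here.

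In 4 of the 5 XUTs the reads lay mostly near the 5′ end of the listed ORFs, opposite the 3′ end of the sense gene. The first and the most-read ORF of each of the 5 XUTs are shown. Each sequence runs 5′ to 3′ on the XUT strand from 12 nt before the start codon, with the start and stop codons in capitals, in build R64. XUT0398 ORF 1 is longer, and only its first 60 nt are shown, without its stop codon. ORFs are numbered from the 5′ end of the XUT.
XUT1341 ORF 1 (chrIX:155715-155852, minus strand): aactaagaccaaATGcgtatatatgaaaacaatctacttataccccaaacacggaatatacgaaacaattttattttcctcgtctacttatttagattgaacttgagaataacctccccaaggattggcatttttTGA
XUT0333 ORF 1 (chrVII:149683-149745, plus strand): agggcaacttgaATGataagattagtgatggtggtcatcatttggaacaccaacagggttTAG
XUT0398 ORF 1 (chrVII:978361-978432, plus strand): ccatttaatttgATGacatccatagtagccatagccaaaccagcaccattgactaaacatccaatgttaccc
XUT1253 ORF 1 (chrVII:714915-714983, minus strand): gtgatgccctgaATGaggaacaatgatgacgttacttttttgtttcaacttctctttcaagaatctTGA
XUT1253 ORF 2 (chrVII:714869-714973, minus strand): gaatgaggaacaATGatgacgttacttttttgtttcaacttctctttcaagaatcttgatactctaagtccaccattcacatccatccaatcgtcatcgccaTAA
XUT0195 ORF 1 (chrIV:831843-831887, plus strand): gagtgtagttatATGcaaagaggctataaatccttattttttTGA
XUT0195 ORF 3 (chrIV:831896-832132, plus strand): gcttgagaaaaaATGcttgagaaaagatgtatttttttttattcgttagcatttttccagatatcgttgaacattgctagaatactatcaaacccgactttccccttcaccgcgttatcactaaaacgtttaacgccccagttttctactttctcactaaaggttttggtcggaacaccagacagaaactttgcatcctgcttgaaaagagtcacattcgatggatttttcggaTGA
The start codons of XUT1253 ORF 1 and ORF 2 lie 10 nt apart and in different frames. XUT1341 ORF 1 likewise holds the start codon of ORF 2, 10 nt downstream of its own and in another frame. Of the 64 ORFs, 52 (81.2%) shared bases with some other listed ORF of their strand, against 60.8% of all listed ORFs, so most of them can share reads. An ORF's count holds reads of any frame: among 1751 pairs of one ORF nested in another anywhere in the table, all in different frames, the inner count exceeded the outer in 0.

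The listed ORFs of XUT1341 begin beyond the 3′ end of COX5B and run across it; transcript ends were not used here. Its first ORF, of 123 nt, starts 75 nt downstream of the COX5B stop codon and covers the last 48 nt of the COX5B coding sequence (CDS, chromosome IX, 155222 to 155765, 2 exons). Its listed ORFs span 1581 nt (154260 to 155840). Beyond COX5B, 5 of them lie opposite HOS4, a subunit of the Set3 histone deacetylase complex. ORF 1 held 21 reads in WT, 151 in CHX-treated WT, 184 in upf1 and 212 in CHX-treated upf1. Over a set of 10 non-overlapping ORFs it took 84.0% (63.9 to 95.5), 88.3% (82.5 to 92.7), 91.1% (86.3 to 94.6) and 88.7% (84.0 to 92.4) of the XUT's reads in that order. The 4 intervals overlap. Pooled over conditions it held 4.62 reads per nt, against 0.0962 over the other 9, and ranked 31 of 13911 chromosomal ORFs by reads per nt. Elsewhere in the XUT, ORF 17 opposite HOS4 held 19 pooled reads, ORF 14 held 17 and ORF 3 opposite COX5B held 11. ORF 6, with 150 nt opposite COX5B, held 0.

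The listed ORFs of XUT0333 start at the 3′ end of COX4. Its first ORF, of 48 nt, begins 9 nt past the COX4 stop codon and covers the last 39 nt of the COX4 CDS (chromosome VII, 149704 to 150171). It overlaps no other listed ORF. It held 3 reads in WT, 30 in CHX-treated WT, 5 in upf1 and 40 in CHX-treated upf1. These were 78 pooled reads, or 80.4% (71.1 to 87.8) of the XUT's reads, at 1.62 reads per nt against 0.0754 in the other 3 non-overlapping ORFs. ORF 2, of 114 nt inside COX4, held 0, 5, 1 and 8 reads. The 4 ORFs upstream of the COX4 start codon held 0 to 3 pooled reads each.

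The listed ORFs of XUT0398 lie wholly inside LSC2. All 3 are opposite the LSC2 CDS (chromosome VII, 978036 to 979319), and 2 of them are nested in the first, an ORF of 453 nt (978373 to 978825). The nearest upstream gene on the XUT's strand is MPC3, a subunit of the mitochondrial pyruvate carrier, which ends 596 nt before it. In the 453-nt ORF there were 10 reads in WT, 102 in CHX-treated WT, 13 in upf1 and 68 in CHX-treated upf1. At 0.426 pooled reads per nt, this ORF was the least dense of the 5 most-read ORFs.

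The listed ORFs of XUT1253 run through CLD1 (chromosome VII, 713709 to 715046). Its first ORF, of 54 nt, starts 75 nt inside the CLD1 CDS from the stop codon and overlaps the 90-nt second ORF by 44 nt. ORF 1 held 1 read in WT, 147 in CHX-treated WT, 32 in upf1 and 170 in CHX-treated upf1. ORF 2 held 3, 164, 56 and 232. ORF 2 had 5.07 pooled reads per nt, rank 26 of 13911, against 0.0492 over the other 13 non-overlapping ORFs. Of the 23 later ORFs, 6 had no read and ORF 6, with 168 nt, had 17 pooled reads.

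The listed ORFs of XUT0195 start beyond the 3′ end of UPS3 (chromosome IV, 831934 to 832473). Its first ORF, of 30 nt, lies past the UPS3 stop codon and held 0 reads in WT, 4 in CHX-treated WT, 5 in upf1 and 11 in CHX-treated upf1. After it, 3 overlapping ORFs lie at the UPS3 stop codon. ORF 3, of 222 nt, held 4, 94, 82 and 120 reads, ORF 2 held 1, 38, 33 and 48, and ORF 4 held 2, 33, 28 and 38. ORF 3 took 92.9% (89.5 to 95.4) of the pooled reads in the non-overlapping ORFs. That share leaves out ORF 5, whose start overlaps the end of ORF 3 and which held 1, 19, 14 and 16 reads, and ORF 6, which overlaps ORF 3 and ORF 5 and held 1, 13, 6 and 10. ORFs 7 to 10, toward and past the UPS3 start codon, held 1 or 2 pooled reads each.

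**Figure D1:**
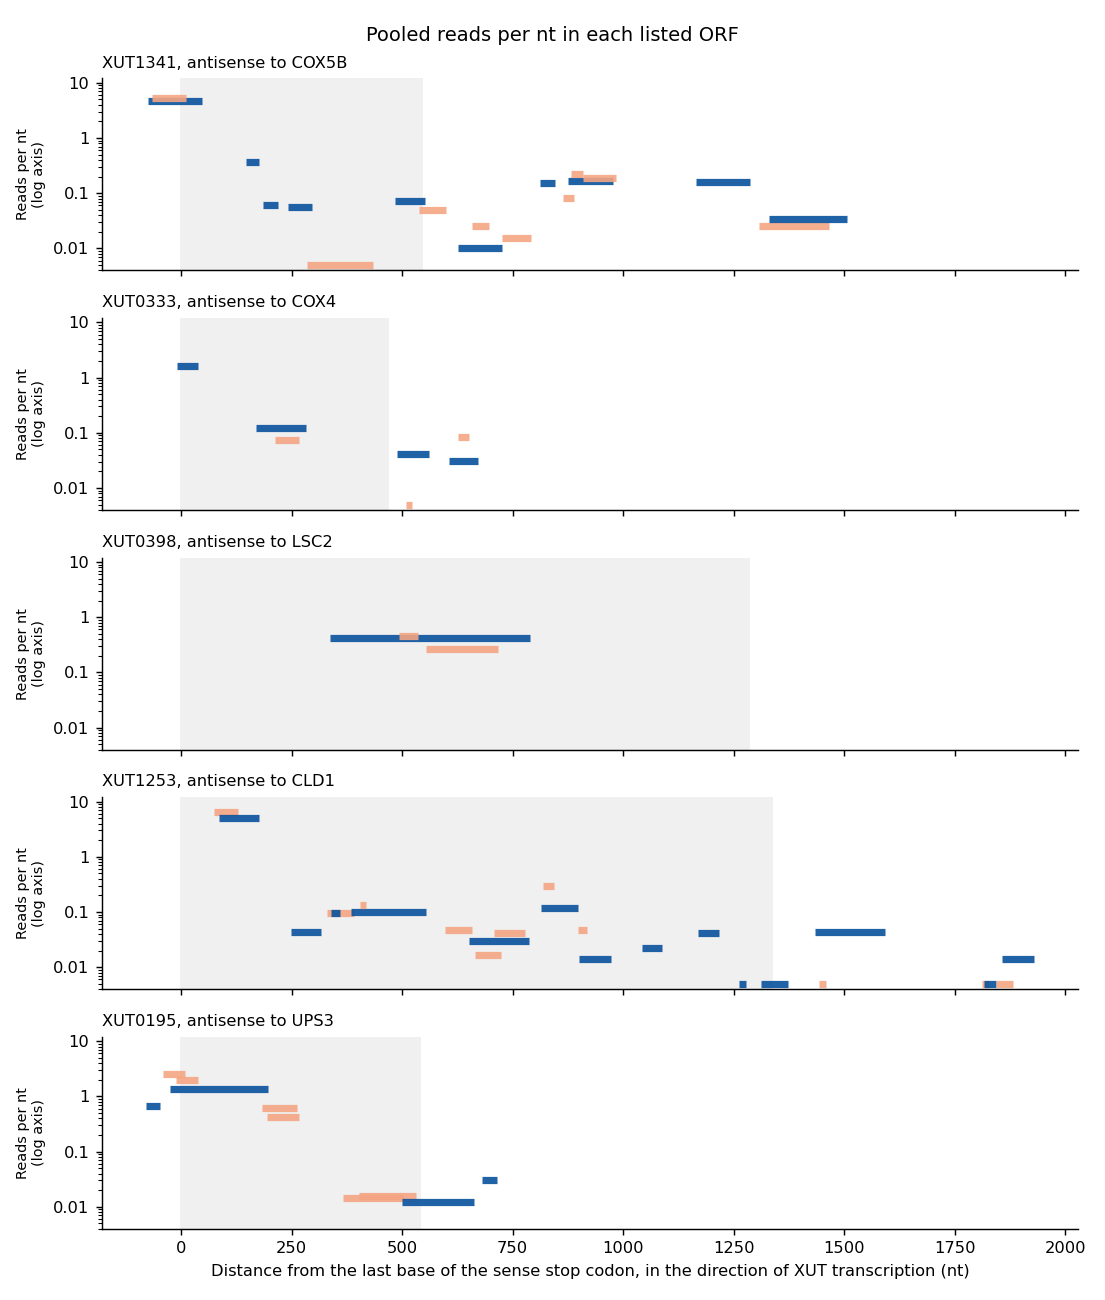
Pooled reads per nt (log axis) of every listed ORF against distance in nt from the last base of the sense stop codon, in the direction of XUT transcription. Grey marks the span of the sense CDS, introns included. Blue bars are the non-overlapping ORFs and orange bars the other ORFs, and ORFs without reads are drawn at the bottom. Density is highest near position 0 in XUT1341, XUT0333, XUT1253 and XUT0195, and the ORFs of XUT0398 lie inside LSC2.

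The concentration of reads in 1 ORF was set beside the 473 chromosomal XUTs with at least 40 pooled reads and 2 or more non-overlapping ORFs. Their most-read ORF held a median of 66.2% of the reads, with quartiles of 47.6% and 87.0%. XUT1341 (89.2%), XUT1253 (90.5%) and XUT0195 (92.9%) lay above the upper quartile, and XUT0333 (80.4%) below it. The XUT0195 value leaves out the reads of ORF 5 and ORF 6, which overlap the end of ORF 3. Among the 473, the most-read ORF was also the first of the non-overlapping ORFs in 270 (57.1%), as it was in XUT1341, XUT0333 and XUT1253.

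Levels were compared between conditions as shares of the reads in non-overlapping chromosomal XUT ORFs. These totals were 3331 reads in WT, 25568 in CHX-treated WT, 17826 in upf1 and 31629 in CHX-treated upf1, so the WT values rest on few reads. They cover XUT ORFs only and are no library depths. A change in share cannot be told apart from a change in the other XUTs, and more RNA cannot be told apart from more ribosomes per RNA.

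XUT1341 took 0.751% (0.486 to 1.11) of the reads in WT, 0.669% (0.573 to 0.776) in CHX-treated WT, 1.13% (0.983 to 1.30) in upf1 and 0.756% (0.663 to 0.857) in CHX-treated upf1. Its share was highest in untreated upf1, where it ranked 7 of 1634 chromosomal XUTs by reads. That share was 1.5-fold (1.24 to 1.82) that of CHX-treated upf1, and the other 3 conditions were within counting error of their neighbours in rank. XUT0333 took 0.0901% (0.0186 to 0.263), 0.145% (0.102 to 0.199), 0.0337% (0.0123 to 0.0732) and 0.161% (0.120 to 0.212), on 3, 37, 6 and 51 reads. Neighbours in its order of conditions did not differ beyond counting error, but the upf1 interval lay below those of both CHX-treated conditions. XUT0398 took 0.300% (0.144 to 0.551), 0.399% (0.325 to 0.484), 0.0729% (0.0388 to 0.125) and 0.215% (0.167 to 0.273). Its lowest share was in untreated upf1, below the intervals of the other 3 conditions.

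XUT1253 took 0.120% (0.0327 to 0.307) in WT, 0.700% (0.602 to 0.810) in CHX-treated WT, 0.421% (0.331 to 0.527) in upf1 and 0.775% (0.681 to 0.877) in CHX-treated upf1, on 4, 179, 75 and 245 reads. Both CHX-treated conditions lay above untreated upf1, which lay above WT. XUT0195 took 0.120% (0.0327 to 0.307), 0.387% (0.315 to 0.471), 0.494% (0.396 to 0.608) and 0.417% (0.349 to 0.495), on 4, 99, 88 and 132 reads. WT alone lay below the rest, and the other 3 conditions did not differ beyond counting error from their neighbours. Scaled also by ORF length, the order of the 5 XUTs changed with the condition. In upf1, XUT1341 had 13490 reads per kb of ORF, scaled to 1000000 XUT reads, XUT0195 had 11040, XUT1253 had 3950, XUT0398 had 1610 and XUT0333 had 1122. In CHX-treated WT, XUT0398 had 8806, XUT0195 8662, XUT1341 7962, XUT1253 6574 and XUT0333 4823.

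**Figure D2:**
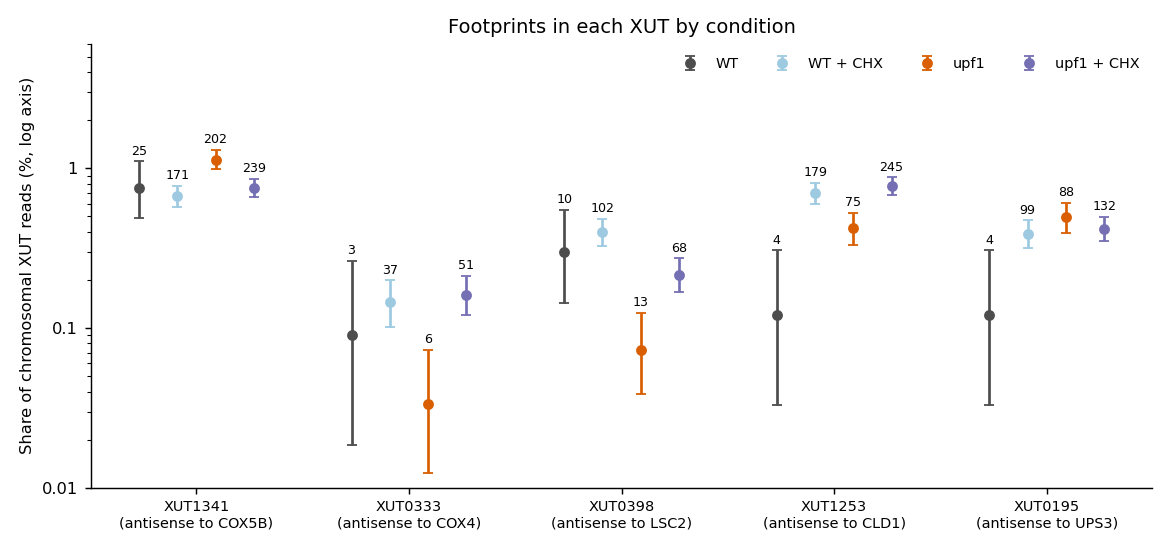
Share of the reads in non-overlapping chromosomal XUT ORFs (percent, log axis) for each XUT in the 4 conditions. Points are the 1 value per condition, bars are 95% exact intervals for counting error, and the numbers printed over the bars are read counts. XUT1253 and XUT0195 are lowest in WT, and XUT0333 and XUT0398 are lowest in untreated upf1, where XUT0333 is within counting error of WT.

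Loss of Upf1 in untreated cells went with opposite differences among the 5 XUTs. The share in upf1 was 4.11-fold that in WT (1.55 to 15.4) for XUT0195, 3.5-fold (1.31 to 13.2) for XUT1253 and 1.51-fold (0.994 to 2.39) for XUT1341. The interval for XUT1341 excluded 1 with the 2-micron plasmid in the totals, at 1.80-fold (1.19 to 2.85). With all listed ORFs the ratio was 1.74-fold (1.23 to 2.55). Reads in overlapping ORFs count more than once there, so that interval is too narrow and nothing is read from its excluding 1. For XUT0398 the share in upf1 was 0.243-fold (0.0984 to 0.619) that in WT. For XUT0333, which had 3 reads in WT, it was 0.374-fold (0.0798 to 2.31). Among the 4 XUTs that had 4 or more reads in each condition, 2 were at least 2-fold higher, against 11.8% of 228 XUTs, and 1 was at least 2-fold lower, against 30.3%. The median ratio was 2.51 over the 4 and 0.779 over the 228. The minimum of 4 reads is a larger share of the 3331 reads in WT than of the 17826 in upf1. It thus selects the 228 for a high WT share, which can lower their ratios, and this was not tested. XUT0195 and XUT1253 were picked for the ratio of upf1 to WT, so nothing is read from those counts or medians.

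With CHX the same genotypes gave ratios near 1 for 4 of the XUTs. They were 1.13-fold (0.925 to 1.38) for XUT1341, 1.11-fold (0.716 to 1.75) for XUT0333, 1.11-fold (0.909 to 1.35) for XUT1253 and 1.08-fold (0.824 to 1.41) for XUT0195, which turned to 0.966-fold (0.799 to 1.17) with all listed ORFs. XUT0398 was at 0.539-fold (0.391 to 0.740), again lower in upf1. None of the 5 passed 2-fold, against 4.64% of 840 XUTs higher and 7.74% lower. The median ratio was 1.11 over the 5 and 0.943 over the 840. XUT0398 was the 1 XUT of the 5 whose share was lower in upf1 beyond counting error both without and with CHX. Its untreated ratio rests on 13 reads in upf1 and 10 in WT, and 30.3% of 228 XUTs were at least 2-fold lower there. The 5 XUTs were chosen partly for ratios or scores in these same data, so the 2 comparisons are no independent support. The difference between the genotype ratios without and with CHX was not tested.

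CHX was compared with no treatment in each genotype. In WT the share with CHX was 5.83-fold that without (2.24 to 21.6) for XUT1253, 3.22-fold (1.22 to 12.1) for XUT0195, 1.61-fold (0.509 to 8.15) for XUT0333, 1.33-fold (0.694 to 2.85) for XUT0398 and 0.891-fold (0.584 to 1.42) for XUT1341. The XUT1341 ratio turned to 1.11 with all listed ORFs and to 1.12 with the plasmid in the totals, and that of XUT0398 to 0.979 with all listed ORFs, all with intervals that include 1. Of the 4 with enough reads, 2 were at least 2-fold higher, against 7.23% of 235 XUTs, and 0 lower, against 31.1%. The read minimum selects these 235 for a high WT share too, which can lower their ratios. These ratios and those of upf1 to WT divide by the same 4 reads each for XUT1253 and XUT0195. In upf1 the share with CHX was 4.79-fold (2.06 to 13.7) for XUT0333, 2.95-fold (1.61 to 5.82) for XUT0398, 1.84-fold (1.42 to 2.42) for XUT1253, 0.845-fold (0.641 to 1.12) for XUT0195 and 0.667-fold (0.551 to 0.808) for XUT1341. Of the 5, 2 were at least 2-fold higher, against 12.2% of 666 XUTs, and 0 lower, against 14.1%. The median ratio was 1.84 over the 5 and 0.990 over the 666. XUT1253 in WT and XUT0333 in upf1 were chosen partly for these ratios, so nothing is read from the counts.

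**Figure D3:**
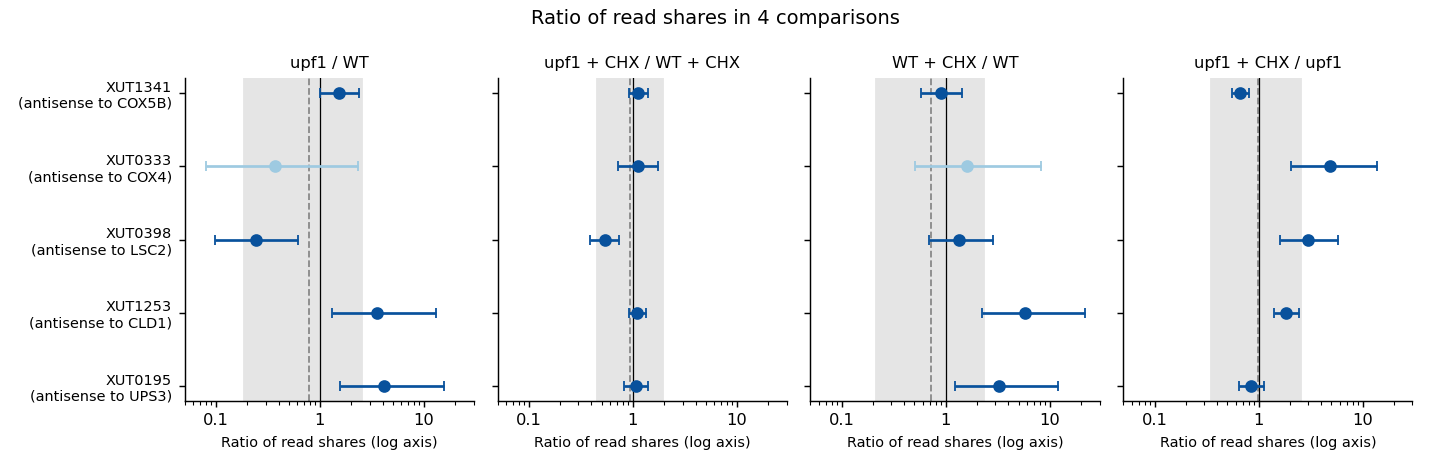
Ratio of read shares (log axis) in the 4 comparisons, with 95% exact intervals for counting error. The grey band holds the middle 90% of all XUTs that had 4 or more reads in each condition, the dashed line is their median, and pale points have fewer reads in WT. Between genotypes with CHX, 4 of the 5 ratios lie between 1.08 and 1.13.

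The position of the reads within the most-read ORFs was also compared between conditions. In XUT0398, the 162-nt ORF 3 makes up 35.8% of the length of the 453-nt ORF around it. It held 8 of the 10 reads in WT, or 80.0% (44.4 to 97.5), and 7 of 13 in upf1, or 53.8% (25.1 to 80.8). With CHX it held 14 of 102 in WT, or 13.7% (7.71 to 22.0), and 14 of 68 in upf1, or 20.6% (11.7 to 32.1). The WT interval without CHX does not overlap either interval with CHX, and the upf1 interval without CHX overlaps that of CHX-treated upf1. The 42-nt ORF 2 of the same XUT held 0 of 10, 16 of 102, 0 of 13 and 3 of 68 reads in WT, CHX-treated WT, upf1 and CHX-treated upf1.

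In XUT1253 the last 46 nt of ORF 2 lie past the stop of ORF 1. At least 2 of its 3 reads in WT, 17 of 164 in CHX-treated WT, 24 of 56 in upf1 and 62 of 232 in CHX-treated upf1 fell there. In percent these lowest possible values were 10.4 (6.16 to 16.1) in CHX-treated WT, 42.9 (29.7 to 56.8) in upf1 and 26.7 (21.1 to 32.9) in CHX-treated upf1. As lower bounds, they do not show that the true percentages differed between conditions. The share of the whole XUT's reads in ORF 2 was 74.7% (63.3 to 84.0) in upf1, against 91.6% (86.6 to 95.2) in CHX-treated WT and 94.7% (91.1 to 97.1) in CHX-treated upf1. Untreated upf1 thus had more of this XUT's reads downstream of its second ORF than either CHX-treated condition, by intervals that do not overlap. Over the 473 XUTs above, the most-read ORFs together held 65.4% of the reads in WT and 67.3% in CHX-treated WT. They held 61.8% in upf1, the lowest value, and 68.9% in CHX-treated upf1.

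In XUT1341 the nested 75-nt ORF 2, 61.0% of the length of ORF 1, held 8 of 21 reads in WT, or 38.1% (18.1 to 61.6). It held 72.2% (64.3 to 79.2) in CHX-treated WT, 65.8% (58.4 to 72.6) in upf1 and 73.6% (67.1 to 79.4) in CHX-treated upf1. The WT interval overlaps that of upf1 and neither of the others. In XUT0195 the 51-nt ORF 4, 23.0% of the length of ORF 3, held 35.1% (25.5 to 45.6) of its reads in CHX-treated WT, 34.1% (24.0 to 45.5) in upf1 and 31.7% (23.5 to 40.8) in CHX-treated upf1. These intervals overlap throughout, and WT had 4 reads there.

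**Figure D4:**
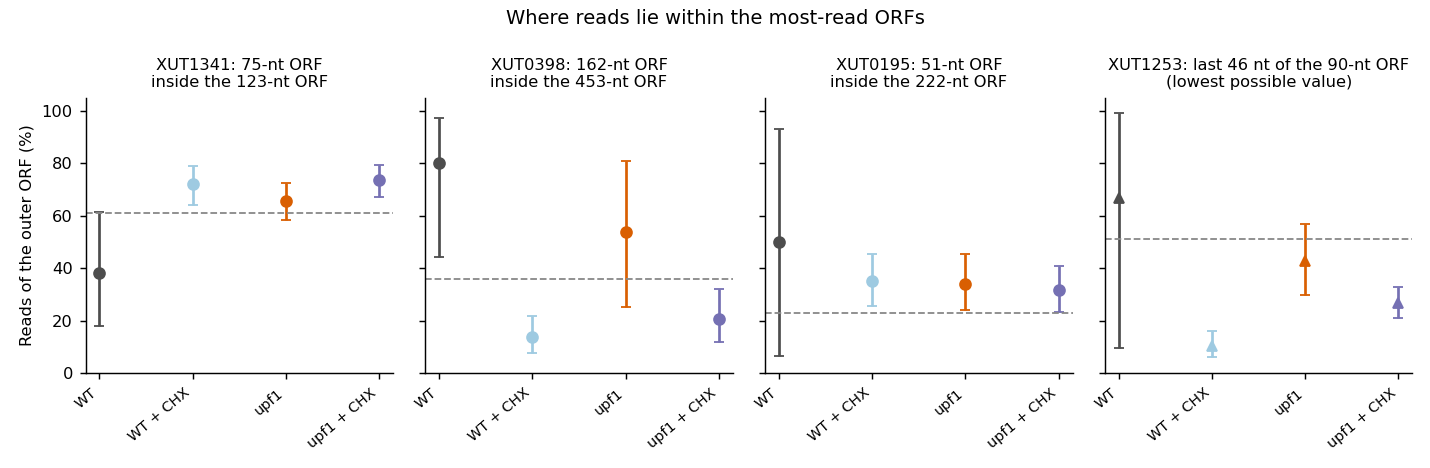
Percent of the reads of a most-read ORF that lie in the named part of it, by condition, with 95% exact intervals for counting error. The dashed line is the part's share of the ORF's length, and triangles are lowest possible values. The XUT0398 values are 80.0% and 53.8% without CHX and 13.7% and 20.6% with it, and those of XUT0195 stay between 31.7% and 50.0%.

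The deposited phase score runs from 0 to 1, and an ORF was called at 0.32 or more with at least 10 reads in the condition. A call does not say which frame was read: ORF 1 and ORF 2 of XUT1253 share 44 nt in different frames, and both were called in CHX-treated WT. Only 14 of the 64 ORFs had 10 reads in any condition. In WT, 1 of 2 such ORFs was called, against 70.7% of all listed ORFs at that depth. In CHX-treated WT it was 5 of 13, against 64.2%, in upf1 6 of 9, against 62.9%, and in CHX-treated upf1 7 of 13, against 72.6%. The median score of these ORFs was 0.278 in CHX-treated WT, 0.399 in upf1 and 0.448 in CHX-treated upf1, where all listed ORFs at that depth had 0.385, 0.378 and 0.434.

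The first ORF of XUT0333, opposite the end of COX4, had the highest scores of the 5 XUTs. It scored 0.731 on 30 reads in CHX-treated WT and 0.807 on 40 reads in CHX-treated upf1. Among ORFs with at least as many reads these were rank 7 of 208 and rank 4 of 191. XUT1253 ORF 1 scored 0.576 on 147 reads in CHX-treated WT, 0.678 on 32 in upf1 and 0.449 on 170 in CHX-treated upf1. XUT1253 ORF 2 scored 0.586, 0.435 and 0.312 in those conditions, and the last value lies just under the threshold.

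The first ORF of XUT1341 scored 0.447 on 21 reads in WT and below the threshold elsewhere. Its scores were 0.213 on 151 reads in CHX-treated WT, 0.233 on 184 in upf1 and 0.313 on 212 in CHX-treated upf1. Among ORFs with at least as many reads the CHX-treated WT score was rank 14 of 14 and the upf1 score rank 11 of 11. In CHX-treated upf1 it was rank 10 of 13, with a score just under the threshold. This ORF thus had many reads and scores below the threshold outside WT. Of those reads, 65.8% to 73.6% lay within the nested ORF 2, which is in another frame and makes up 61.0% of the length. ORF 2 also scored below the threshold, at 0.275 in CHX-treated WT, 0.2725 in upf1 and 0.284 in CHX-treated upf1. The 453-nt ORF of XUT0398 scored 0.200 in WT, 0.293 in CHX-treated WT, 0.481 in upf1 and 0.458 in CHX-treated upf1. ORF 3 of XUT0195 scored 0.196 in CHX-treated WT, 0.304 in upf1 and 0.453 in CHX-treated upf1. With CHX both ORFs scored higher in upf1 than in WT, as did the median of all listed ORFs with at least 10 reads (0.434 against 0.385). Untreated XUT0398 also scored higher in upf1, on 13 reads against 10, where that median was 0.378 in upf1 and 0.420 in WT. XUT0195 had too few WT reads to score untreated. The 5 XUTs were chosen partly for ratios or score differences in these data, so nothing more is read from this. Just outside the threshold lay XUT0195 ORF 2 in CHX-treated upf1, at 0.316, and just inside it XUT0195 ORF 4 in CHX-treated WT, at 0.363.

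**Figure D5:**
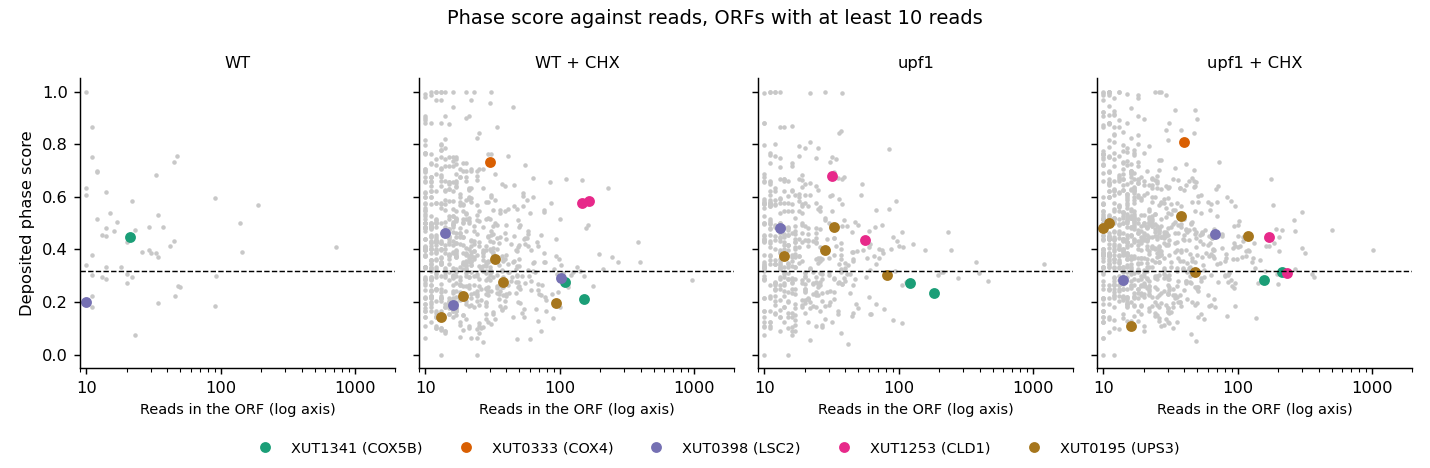
Deposited phase score against reads in the ORF (log axis) for ORFs with at least 10 reads, by condition. Grey points are all listed ORFs, coloured points the ORFs of the 5 XUTs, and the dashed line is the threshold of 0.32. XUT0333 ORF 1 lies high at 0.731 and 0.807, and XUT1341 ORF 1 lies at 0.213 to 0.447.

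The 5 XUTs were set beside other XUTs antisense to genes for mitochondrial proteins, from a list of 142 genes for respiratory complexes, the tricarboxylic acid cycle, phospholipids, coenzyme Q, import and carriers. Of these genes, 19 had an XUT ORF opposite their CDS, in 20 XUTs that include the 5, and 12 of the 20 had at least 10 reads in a condition. XUT0673, antisense to the cytochrome c oxidase subunit gene COX8, had 3 reads in WT, 127 in CHX-treated WT, 111 in upf1 and 144 in CHX-treated upf1. XUT1693, antisense to CYT1, which encodes cytochrome c1, had 7, 49, 79 and 94. XUT1629 (TOM7, of the outer-membrane translocase) had 2, 33, 4 and 28. XUT0867, opposite the oxidase assembly gene COA2, had 0, 19, 3 and 17. XUT0450, opposite GEP4 of cardiolipin synthesis, had 0, 11, 4 and 18. XUT1338, opposite the carrier gene FLX1, had 3, 8, 4 and 10. These 6 were fewest in WT, as were all 5 described above in count, and WT had the fewest XUT reads in all.

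Apart from the 5, the list gave 7 XUTs to compare between CHX-treated upf1 and CHX-treated WT. None of the 7 passed 2-fold, against 4.64% of 840 XUTs higher and 7.74% lower. Their median ratio was 0.917, against 0.943 over the 840. XUT1693 was at 1.55-fold (1.09 to 2.24), an interval that excludes 1. Between CHX-treated upf1 and upf1, 2 of 8 were at least 2-fold higher and 1 lower, against 12.2% and 14.1% of 666 XUTs. The median was 0.929 against 0.990. XUT1629 was at 3.95-fold (1.38 to 15.5). In the other direction, XUT0673 was at 0.731-fold (0.567 to 0.945) and XUT1693 at 0.671-fold (0.492 to 0.916). The remaining intervals in this comparison include 1. In untreated cells only XUT1693 had enough reads, at 2.11-fold (0.977 to 5.42) for upf1 to WT.

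The chromosomal XUT with the most similar pattern was found for each of the 5, among 487 others with at least 40 reads. The 4 shares of an XUT were scaled to sum to 1, and likeness was the summed absolute difference over the 4 conditions. XUT1392 lay nearest XUT1341, with a difference of 0.0320 against a median of 0.381 over the 487. XUT0252 lay nearest XUT0333 (0.129 against 0.468) and XUT0712 nearest XUT0398 (0.0660 against 0.530). XUT1591 lay nearest XUT1253 (0.0367 against 0.465) and XUT0566 nearest XUT0195 (0.0514 against 0.407). XUT1591 has an ORF antisense to YMR247W-A, and the other 4 have none opposite a CDS. With 2 to 8 WT reads in these neighbours, the likeness is a description of few counts.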

How the data were processed

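Ribosome-protected RNA was sequenced from 8 libraries in 4 conditions of 2 biological replicates. The submitters' processing notes name HISAT2 2.2.0, cutadapt and UMI-tools, and the genome build R64. For the ORF finder, the score's formula and the merging of replicates, the method is not given in the sources used here. For every ORF and condition the authors deposited a whole-number read count, not scaled to depth, and a phase score from 0 to 1. Single reads scored 1 in 88.4% to 91.3% of ORFs, so scores were used only from 10 reads.

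Reads of an XUT were summed over non-overlapping ORFs, chosen by highest pooled count first (9205 in all), and expressed as a share of such reads on chromosomes. The 2-micron plasmid, with 5.7% to 25.5% of the reads, was left out. Intervals on shares are Clopper-Pearson, and those on ratios are exact conditional binomial intervals (Python 3.11.15, scipy 1.17.1), with the ratio code tested on simulated data. The simulation held counting error only, at the depth of XUTs with at least 10 reads in both CHX-treated conditions. It did not cover counts as low as those in untreated WT. With 1 value per condition, the planned edgeR test could not be run. In the R64 reference the start codon ATG and a stop codon just after the ORF were found for all 13911 ORFs on nuclear chromosomes. An overlap of 1 nt with a CDS on the other strand made an ORF antisense. By rule the named ORFs are the first, the most-read and those with 10 reads in a condition; XUT1341 ORFs 3, 6, 14 and 17, XUT0333 ORF 2 and XUT1253 ORF 6 were added after their values were seen. Named other XUTs are the nearest in pattern and the 6 most-read of the mitochondrial list. The members and lists were chosen with earlier results of these data known. Alternatives were other ORF sets, totals, read minimums, folds and thresholds.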

Additional observations from a re-analysis of the deposited data

How the results depend on the processing

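The 20 ratios of read shares of the 5 XUTs stayed within their counting intervals with all listed ORFs, with non-overlapping ORFs taken longest first and with the 2-micron plasmid in the totals. The direction turned for XUT1341 and XUT0398 with CHX in WT and for XUT0195 between genotypes with CHX, where intervals include 1. The XUT1341 interval for upf1 to WT came to exclude 1 with the plasmid in the totals. It did so too with all listed ORFs, where repeated counting of reads makes the interval too narrow. The ratio passed 2-fold for XUT0333 with CHX in WT (2.01 with the plasmid) and for XUT1253 with CHX in upf1 (2.11 with all listed ORFs). With all listed ORFs, 8 of the 20 shares moved out of their intervals, since overlapping ORFs count reads more than once. Requiring 10 reads in both conditions, fewer XUTs were compared. Those at least 2-fold higher and lower then numbered 6 and 18 of 63 for upf1 to WT. They numbered 20 and 24 of 569 for CHX-treated upf1 to CHX-treated WT. For CHX-treated to untreated they were 2 and 20 of 63 in WT and 29 and 46 of 389 in upf1. At a fold of 1.5 they numbered 44 higher and 95 lower of 228 for upf1 to WT, and 114 and 192 of 840 with CHX. For CHX they were 30 and 112 of 235 in WT, and 168 and 173 of 666 in upf1. With a minimum of 5 reads, the ORFs of the 5 XUTs called were 2 of 4 in WT, against 73.8% of all listed ORFs at that minimum, 9 of 17 in CHX-treated WT, against 70.4%, 11 of 15 in upf1, against 70.1%, and 8 of 18 in CHX-treated upf1, against 77.1%, while 20 reads or a threshold of 0.4 kept each count within 1.5 times. No paired analysis was possible because the table merges the replicates of a condition, and leaving out a replicate was not run for the same reason. In WT 1 read is worth 0.0300% of the total, and 0 reads in WT allow a share of up to 0.0901%.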

Other observations

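The base 3 nt before the start codon was A in 5 of the 14 ORFs with at least 10 reads in a condition (35.7%), against 35.6% of 1099 chromosomal ORFs at that depth and 29.0% of all 13911. Among the ORFs shown above, XUT1253 ORF 2 and XUT0195 ORF 3 have A there, while the first ORFs of XUT1341, XUT0333, XUT0398, XUT1253 and XUT0195 do not. Of the 40 ORFs that keep 1 register against the sense CDS, 17 have their first codon base opposite sense codon position 1, 12 opposite position 2 and 11 opposite position 3. Pooled reads in these ORFs, some counted in more than 1 of them, numbered 233, 1391 and 1187.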
